A study of Mus musculus with 2 samples.

Results

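Of the 27998 mouse genes in the gene annotation used for the series, 9 are described here as hair cell fate transcription factor genes. They are Sox2, Atoh1, Insm1, Tbx2, Pou4f3, Gfi1, Barhl1, Bcl11b and Prox1. The list was chosen and leaves out other cochlear regulators, and several of its factors act in differentiation or survival. The genes were taken by gene symbol, and all 9 were found, with 264 annotation rows. They lay on 8 chromosomes, 5 on the plus and 4 on the minus strand, and had 21 transcripts, of which 19 were protein-coding and 2 were processed transcripts, a class with no annotated coding sequence. The gene models are described here: exons, coding length, isoforms, first exons and the long non-coding genes nearby. No model says which transcript a hair cell makes.

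The series compared 2 single-cell libraries from cochleae of mice at postnatal day 8, with 1 library per group and no replicate. Cochleae of the GFP group had received an Anc80-GFP control virus, and those of the Ikzf2 group an Anc80-Ikzf2 virus. Anc80 is an engineered adeno-associated virus capsid, and Ikzf2 encodes Helios, a zinc finger regulator of outer hair cells. All mice carried Myo15-Cre and Ai14, so that the Myo15 promoter drives Cre in hair cells and tdTomato-positive cells could be sorted before capture with a droplet 3′ chemistry. Expression in either library was not analysed here, and nothing that follows compares the groups.

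In the developing cochlea, Sox2 marks the progenitors of the sensory epithelium, and Atoh1 commits some of them to become hair cells. Cells that do not become hair cells stay as supporting cells, in some of which Prox1 is made. Hair cells then depend on factors such as Pou4f3, Gfi1 and Barhl1 to differentiate and survive, while Insm1 and Tbx2 take part in the choice between the outer and the inner hair cell type.

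In 3 of the 9 genes, Sox2, Atoh1 and Insm1, the whole coding sequence lay in 1 exon, without an intron. A gene was counted if at least 1 of its protein-coding transcripts had this layout. The share among all 21990 protein-coding mouse genes with a coding transcript was 20.9%. It was 16.4% where every protein-coding transcript had to have the layout, which the 3 genes also met. One gene of 9 is 11.1%, so a count of 3 does not set the genes apart from these shares. The 3 genes had 1 transcript each, with 1 exon from start to end, and 10.8% of all protein-coding genes had 1 exon in every transcript. Among 13 close relatives of the 9 genes, 4 had an intronless coding sequence: Atoh7, Insm2, Sox1 and Sox3. Among 30 other cochlear transcription regulators there were 6, among them Neurog1, Neurod1, Id1, Sox4 and Sox11. Id1 had 2 protein-coding transcripts, of which 1 had an intronless coding sequence.

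**Figure D1:**
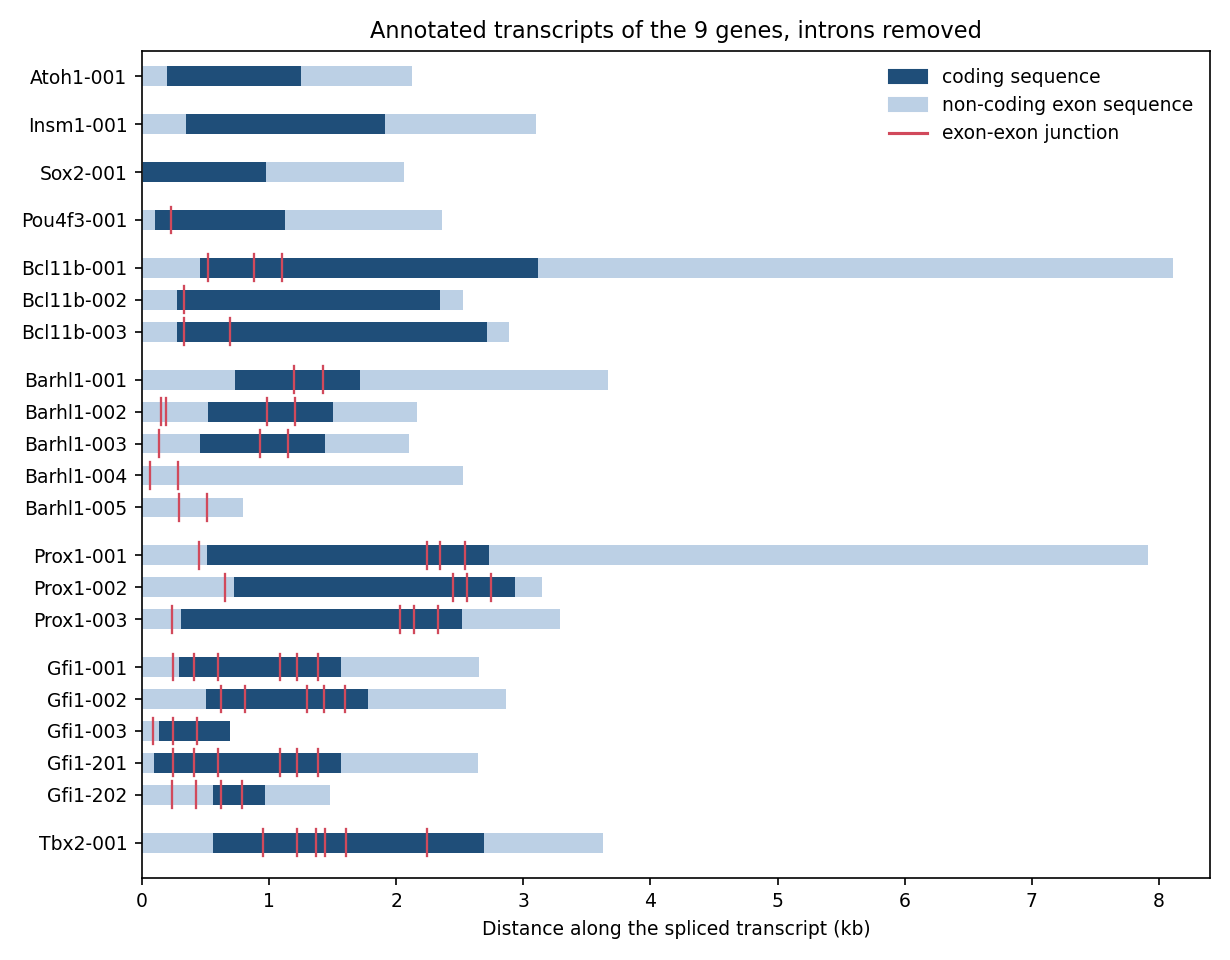
The 21 annotated transcripts of the 9 genes with introns removed, from the 5′ end at the left. The horizontal axis is the distance along the transcript in kilobases, dark bars are coding sequence, pale bars are non-coding exon sequence and red lines are junctions between exons. The transcripts of Atoh1, Insm1 and Sox2 have no junction, and Bcl11b-001 and Prox1-001 are the longest, with 8111 and 7913 bases.

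Sox2 (ENSMUSG00000074637), an HMG-box factor that keeps cells in a progenitor state and is needed for the sensory domain to form, lay on the plus strand of chromosome 3 from 34650405 to 34652461 on assembly GRCm38, as do all positions given here. Its span of 2057 bases was the shortest of the 9 genes. The 1 transcript coded for 319 amino acids in 960 bases, the shortest coding sequence of the 9. Only 11 exon bases preceded the start codon, against 95 to 733 in the other complete coding transcripts of the genes. RefSeq places the start of Sox2 at 34649995, which is 410 bases upstream of the start in the deposited annotation. The shortest span and the 11 bases before the start codon therefore hold for the deposited model only.

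Atoh1 (ENSMUSG00000073043), the basic helix-loop-helix factor that turns progenitors into hair cells, lay on the plus strand of chromosome 6 from 64729125 to 64731245. Its single exon of 2121 bases held 198 bases before the start codon, 1056 coding bases for 351 amino acids and 867 bases after the stop codon. The RefSeq start and the deposited start are the same base. The 250 bases before it (chr6:64728875-64729124, plus strand, RefSeq on GRCm38.p6) are printed because Atoh1 has this 1 start. Capitals mark 2 matches on the opposite strand, from left to right to CCAAT, at 139 to 143 bases before the start, and to GGGCGG, at 115 to 120 bases before it.
Atoh1: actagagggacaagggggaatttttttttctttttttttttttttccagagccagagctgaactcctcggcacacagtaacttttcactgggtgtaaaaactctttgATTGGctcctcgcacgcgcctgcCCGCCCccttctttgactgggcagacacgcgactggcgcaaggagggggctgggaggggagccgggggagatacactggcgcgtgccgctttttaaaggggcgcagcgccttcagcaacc

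A match is a statement about letters and not about a bound factor. Of all 32841 mouse RefSeq promoter windows of the same length, 33.9% hold CCAAT and 32.7% hold GGGCGG on either strand, so neither match sets Atoh1 apart. GC content of the Atoh1 window was 55.6%, against a median of 52.4% over all windows.

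Insm1 (ENSMUSG00000068154), a zinc finger factor that outer hair cells need early to keep from turning towards inner hair cells, lay on the plus strand of chromosome 2 from 146221921 to 146225020. It had the longest of the 3 intronless coding sequences, with 1566 bases for 521 amino acids, after 345 bases before the start codon and followed by 1189 bases. Its coding sequence was also the richest in G and C of the 9 genes over all bases, at 74.1%. At the third base of codons it had 87.9%, below the 90% of Sox2.

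Tbx2 (ENSMUSG00000000093), a T-box factor of inner hair cells, stood at the other end of the range in exon number. It lay on the plus strand of chromosome 11 from 85832551 to 85841948 and had 1 transcript with 7 exons, all coding in part. The 2136 coding bases gave 711 amino acids, and the largest coding exon, with 638 bases, held 29.9% of them. Its 6 introns ranged from 96 to 2086 bases. The relatives Tbx3, Tbx4 and Tbx5 had 8 coding exons each and 2226, 1659 and 1557 coding bases. Tbx4 lay on the same chromosome as Tbx2.

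Pou4f3 (ENSMUSG00000024497), a POU-domain factor without which hair cells are born but die, lay on the plus strand of chromosome 18 from 42394539 to 42397249. It had 1 transcript in the deposited annotation, with 2 exons around an intron of 351 bases. The second exon held 897 of the 1017 coding bases (88.2%), and the protein has 338 amino acids. Pou4f1 and Pou4f2 shared the layout of 2 coding exons, with 1266 and 1236 coding bases. GENCODE M21, a later annotation of the same assembly, adds the single-exon transcript Pou4f3-202. It starts at 42395075, inside the intron, and codes for 256 amino acids in 771 bases, all of which lie in 1 exon.

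Gfi1 (ENSMUSG00000029275), a zinc finger repressor whose expression in hair cells depends on Pou4f3 (chromosome 5, minus strand, 107716657 to 107726036), had 5 transcripts, all labelled protein-coding. They began at 4 different bases spread over 2075 bases, with 4 different first exons of 82 to 620 bases. Their 4 coding sequences were the most of any of the 9 genes, ahead of the 3 of Bcl11b. That of Gfi1-003 is incomplete, and without it Gfi1 would not be ahead. Gfi1-001 and Gfi1-002 both code for 423 amino acids in 1272 bases, from a start codon at 107723838. In Gfi1-001 that codon lies in exon 2, behind a first exon of 245 non-coding bases. In Gfi1-002 it lies in a longer first exon of 620 bases that begins 1462 bases further downstream. Gfi1-003 uses the same start codon, but its model has no stop codon and ends after 559 coding bases, so its protein length is unknown.

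The remaining forms of Gfi1 differ in where translation is drawn to begin. Gfi1-201 has the same first exon as Gfi1-001, from the same base, yet its start codon is annotated in that exon at 107725710, and it codes for 489 amino acids in 1470 bases. The start codon of Gfi1-001 is codon 67 of Gfi1-201 in the same reading frame, so the longer form has 66 additional amino acids at its N-terminus. Both models have the same exons apart from the last, whose ends lie 9 bases apart. Gfi1-202 lacks the exon of 488 bases that is the largest coding exon of the gene, and its exon 3 begins 59 bases earlier than the matching exon of the other forms. Its start codon, at 107721182 in exon 3, is codon 355 of Gfi1-201, and its 135 amino acids make up 27.8% of the longest form by coding bases. It has support level 5, the lowest grade the annotators give, and was the 1 transcript of the 21 not found under its identifier in M21, where the other 20 have the same exons and the same coding sequence.

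The first 30 coding bases of the 3 forms show the separate starts, all on the minus strand of GRCm38. Those of Gfi1-201 lie at chr5:107725681-107725710, those of Gfi1-001 at chr5:107723809-107723838 and those of Gfi1-202 at chr5:107721153-107721182. Capitals mark the start codon.
Gfi1-201: ATGtggcggcagcgggcttctggaggcctc
Gfi1-001: ATGccgcgctcattcctggtcaagagcaag
Gfi1-202: ATGtgcggcaagaccttcgggcacgcggtg

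Barhl1 (ENSMUSG00000026805), a homeobox factor that hair cells need to survive, had several starts like Gfi1, but 1 protein. It spanned 28907679 to 28916668 on chromosome 2, minus strand. Its 5 transcripts began at 5 different bases spread over 4173 bases. The 3 protein-coding ones all code for the same 327 amino acids in 984 bases from a start codon at 28915679. In Barhl1-001 this codon lies in a first exon of 1199 bases, in Barhl1-003 in exon 2 behind a first exon of 131 bases, and in Barhl1-002 in exon 3 behind exons of 151 and 38 bases. The non-coding sequence ahead of the same protein therefore measured 733, 459 and 517 bases. The 2 processed transcripts begin downstream of the start codon: Barhl1-005 at 28915505, inside the first coding exon, and Barhl1-004 at 28912495, inside the intron after it. Barhl2, the closest relative, had 3 coding exons as well and 1155 coding bases.

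RefSeq also has starts for Barhl1 at the outermost and the innermost of these bases, those of Barhl1-002 and Barhl1-004. The 250 bases before each are printed because the first leads into the coding sequence and the second lies behind its start codon (chr2:28916669-28916918 and chr2:28912496-28912745, minus strand, RefSeq on GRCm38.p6). Capitals in the first mark CAGCTG, which reads the same on both strands, at 94 to 99 bases before the start. In the second they mark, from left to right, AACAAT on the opposite strand at 43 to 48 bases and CAGCTG at 10 to 15 bases.
Barhl1-002: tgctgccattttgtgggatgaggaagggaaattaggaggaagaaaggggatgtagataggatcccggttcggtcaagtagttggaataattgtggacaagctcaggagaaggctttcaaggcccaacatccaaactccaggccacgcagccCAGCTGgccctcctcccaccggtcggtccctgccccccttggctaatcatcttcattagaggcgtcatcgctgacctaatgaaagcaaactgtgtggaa
Barhl1-004: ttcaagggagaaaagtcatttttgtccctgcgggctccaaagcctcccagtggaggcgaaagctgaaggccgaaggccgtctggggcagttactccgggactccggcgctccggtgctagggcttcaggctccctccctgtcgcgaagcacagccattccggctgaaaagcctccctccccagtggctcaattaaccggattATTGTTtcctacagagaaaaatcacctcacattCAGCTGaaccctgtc

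CAGCTG is 1 form of the E-box, the motif of basic helix-loop-helix factors such as Atoh1, and AACAAT is a core that SOX factors prefer. Over all windows, 13% hold CAGCTG and 9.43% hold AACAAT on either strand. Of the 9 RefSeq windows of the genes, those of Barhl1 were the 2 with CAGCTG, and that of Barhl1-004 was the 1 with AACAAT. Whether a factor binds there was not analysed here. RefSeq promoter windows were matched for 6 of the 9 genes, all but Insm1, Tbx2 and Pou4f3.

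Bcl11b (ENSMUSG00000048251), a zinc finger factor made in outer hair cells and best known from T cells and cortical neurons, was the largest of the 9 genes, with a span of 93200 bases (chromosome 12, minus strand, 107910403 to 108003602). It also had the longest coding sequence, 2655 bases for 884 amino acids in Bcl11b-001. The last of its 4 coding exons held 2015 of those bases (75.9%), while the first 3 held 58, 366 and 216. Bcl11a had the same layout, with 2508 coding bases in 4 exons and 80.6% of them in the largest.

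The 3 transcripts of Bcl11b share their start codon, at 108003143 in exon 1, and the coding part of the last exon, and differ in the exons between. Bcl11b-001 contains both middle exons. Bcl11b-003 leaves out exon 3, which is 72 codons, and codes for 812 amino acids. Bcl11b-002 leaves out exons 2 and 3, together 194 codons, and codes for 690 amino acids. Both middle exons are whole numbers of codons, 122 and 72, so every shared base stays in the same reading frame. Bcl11b-002 crosses from exon 1 to exon 4 over 1 intron of 85671 bases, in place of introns of 13255, 23577 and 48257 bases. The starts lie 188 bases apart, with Bcl11b-001 the further upstream, and its model runs on for 4997 bases past the stop codon against 178 in the other 2.

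The junctions tell the 3 forms apart. Each line gives the last 12 bases of 1 exon in lower case and the first 12 of the next in capitals, on the minus strand of GRCm38. Exon 1 ends at 108003086 on chromosome 12, exon 2 runs from 107989830 to 107989465, exon 3 from 107965887 to 107965672, and exon 4 begins at 107917414. The join of exons 1 and 2 occurs in Bcl11b-001 and Bcl11b-003, those of exons 2 and 3 and of exons 3 and 4 in Bcl11b-001, that of exons 2 and 4 in Bcl11b-003, and that of exons 1 and 4 in Bcl11b-002.
Exons 1 and 2: aactcatcacgcCAGAGGCTGACC
Exons 2 and 3: agaacattgcagGGCCGTGCAGGC
Exons 3 and 4: gtgagttgtcagGTAAAGATGAGC
Exons 2 and 4: agaacattgcagGTAAAGATGAGC
Exons 1 and 4: aactcatcacgcGTAAAGATGAGC

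Prox1 (ENSMUSG00000010175), a homeobox factor of pillar and Deiters' cells among the supporting cells, had a span of 52680 bases, 190118035 to 190170714 on chromosome 1, minus strand. Its 3 transcripts had 5 exons each, the first of them non-coding, and all code for the same 737 amino acids in 2214 bases. The start codon lies at 190162246 in exon 2, which holds 1725 of the coding bases (77.9%). Prox2 had 4 coding exons too, with 72.6% of 1782 bases in the largest. Prox1-001 and Prox1-002 start within 34 bases of each other, at 190170714 and 190170680, with overlapping first exons of 447 and 653 bases. Prox1-003 starts 1315 bases downstream of Prox1-001, at 190169399, inside the first intron of the other 2, with a first exon of 237 bases. The transcripts ended 5185, 210 and 767 bases after the stop codon for Prox1-001, Prox1-002 and Prox1-003. Prox1-002 has support level 5, and the other 2 have level 1, the best grade.

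Prox1 was the 1 gene of the 9 with an antisense or long intergenic non-coding (lincRNA) gene within 10000 bases of its span. The share over all protein-coding genes was 18.7%. Prox1 had 2 such genes, both antisense, on the plus strand, and both overlapping its 5′ end. Prox1os (ENSMUSG00000079045) runs from 190170296 to 190217276, away from Prox1 over 46981 bases. Its first exon of 133 bases lies wholly within the first exons of Prox1-001 and Prox1-002, so that all 133 bases are exon on both strands, while none of them is coding. It begins 418 bases inside Prox1-001 and 384 inside Prox1-002. The other, Gm28172 (ENSMUSG00000099404), is short, 964 bases from 190168670 to 190169633. Its exons of 378 and 128 bases lie on either side of the first exon of Prox1-003, and share no base with an exon of Prox1, and the gene begins 729 bases downstream of the Prox1-003 start. Of the 2, Prox1os is the one that shares exon bases with Prox1 in these models.

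**Figure D2:**
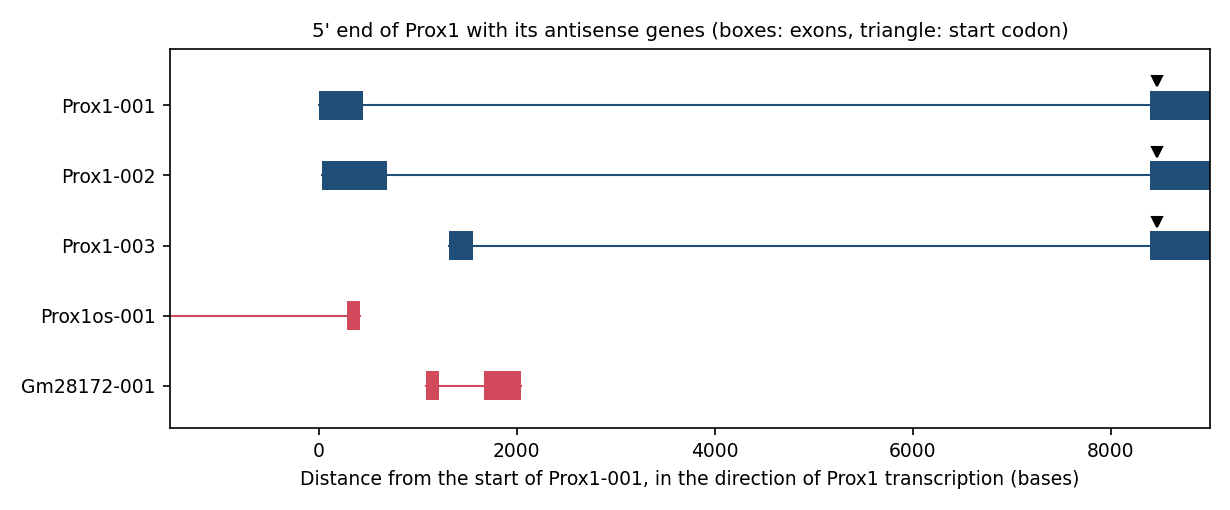
The 5′ end of Prox1 with its antisense genes. The horizontal axis is the distance in bases from the start of Prox1-001, in the direction in which Prox1 is transcribed, boxes are exons, lines are introns and triangles are start codons. Prox1 transcripts (blue) run to the right and the antisense genes (red) run to the left. The first exon of Prox1os sits inside those of Prox1-001 and Prox1-002, and the exons of Gm28172 stand on both sides of the first exon of Prox1-003.

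RefSeq has 2 starts for Prox1, 113 and 116 bases upstream of those of Prox1-001 and Prox1-003. The 250 bases before each are printed because both windows meet an antisense gene. The window near Prox1-001 (chr1:190170828-190171077, minus strand, RefSeq on GRCm38.p6) lies wholly within the intron of Prox1os. Of the window near Prox1-003 (chr1:190169516-190169765, minus strand, same build), 118 bases lie in an exon of Gm28172. Capitals in the first mark, from left to right, GGGCGG at 120 to 125 and at 90 to 95 bases before the RefSeq start, and TATAAA on the opposite strand at 29 to 34 bases. In the second they mark GGGCGG at 53 to 58 bases.
Prox1-001: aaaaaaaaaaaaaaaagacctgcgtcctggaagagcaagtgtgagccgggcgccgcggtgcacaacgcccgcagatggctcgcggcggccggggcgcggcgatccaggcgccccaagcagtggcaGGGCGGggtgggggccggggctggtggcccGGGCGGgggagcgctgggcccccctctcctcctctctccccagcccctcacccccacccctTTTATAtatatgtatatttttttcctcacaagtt
Prox1-003: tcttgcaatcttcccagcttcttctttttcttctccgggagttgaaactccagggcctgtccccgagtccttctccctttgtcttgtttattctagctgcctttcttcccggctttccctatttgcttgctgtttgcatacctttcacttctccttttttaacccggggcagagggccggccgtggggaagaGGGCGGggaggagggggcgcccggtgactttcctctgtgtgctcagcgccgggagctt

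The window of Prox1-001 was the 1 of the 9 with TATAAA, the TATA box, which 12.4% of all windows hold on either strand. GGGCGG, the GC box, was found in 4 of the 9 windows: both of Prox1, that of Sox2 and that of Atoh1. Neither window of Gfi1 held any of the 5 motifs searched, which says only that these letters are not there. GC content was 64.8% before Prox1-001 and 56% before Prox1-003. In the 9 windows, which belong to 6 of the genes, it ranged from 44.8% before Bcl11b-002 to 72% before Sox2. Not every window lies wholly outside exons of its own gene. In that of Bcl11b-002, 188 bases lie in an exon of Bcl11b, and in that of Gfi1-001, 82 bases lie in an exon of Gfi1.

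The other 8 genes had no lincRNA or antisense gene within the window, and their nearest ones lay at very different distances. Gfi1 came closest, with the lincRNA 4930428O21Rik 13177 bases away on the same strand. Insm1 was 34266 bases from A930019D19Rik, Sox2 47179 bases from Gm3143 and Tbx2 56871 bases from Bcas3os2. For Bcl11b the distance to Gm15208 was 126362 bases, and for Barhl1 that to Gm13393 was 171998 bases. Pou4f3 and Atoh1 stood farthest off, at 538221 bases from 4933407I08Rik and 687568 bases from Gm44072. Of the other 8 genes, 4 had none within 100000 bases, and the share over all genes at that distance was not computed.

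Such neighbours were annotated for more of the related genes. Of the 13 close relatives, 6 had an antisense or lincRNA gene within 10000 bases: Tbx3 (Tbx3os1 and Tbx3os2), Tbx5 (Gm43050), Bcl11a (Gm12063, Gm12064 and 4930538E20Rik), Barhl2 (Gm26872), Sox3 (Gm14662) and Prox2 (Prox2os). Of the 30 other cochlear regulators, 13 had one, and in 8 of these it overlapped the gene: Gata3, Pax2, Lhx3, Neurod1, Sox4, Emx2, Ikzf2 and Nr2f1. Prox1 and Prox2 thus both have an overlapping antisense gene. Tbx2, Bcl11b, Barhl1 and Sox2 had none within the window, whereas their relatives Tbx3 and Tbx5, Bcl11a, Barhl2 and Sox3 each had at least 1. The relatives of the other 4 genes (Atoh1, Insm1, Pou4f3 and Gfi1), as well as Tbx4 and Sox1, had none there either.

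The count for the 9 genes rested on which biotypes the annotation holds. Its gene rows have 3 biotypes, protein-coding, lincRNA and antisense. With M21, which also labels long non-coding genes as processed_transcript, 4 of the 9 genes had such a neighbour, against 28.9% of all protein-coding genes there. For Sox2 it was Sox2ot, the long transcript that runs on the same strand over 578350 bases (34104270 to 34682619) and contains all of Sox2 without sharing an exon base. For Gfi1 it was A430072P03Rik, on the opposite strand at 107725157 to 107728801, with 101 exon bases shared. For Tbx2 it was 2610027K06Rik, which starts 328 bases from the Tbx2 start and runs the other way over 40563 bases. Prox1 had the same 2 antisense genes in both annotations.

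**Figure D3:**
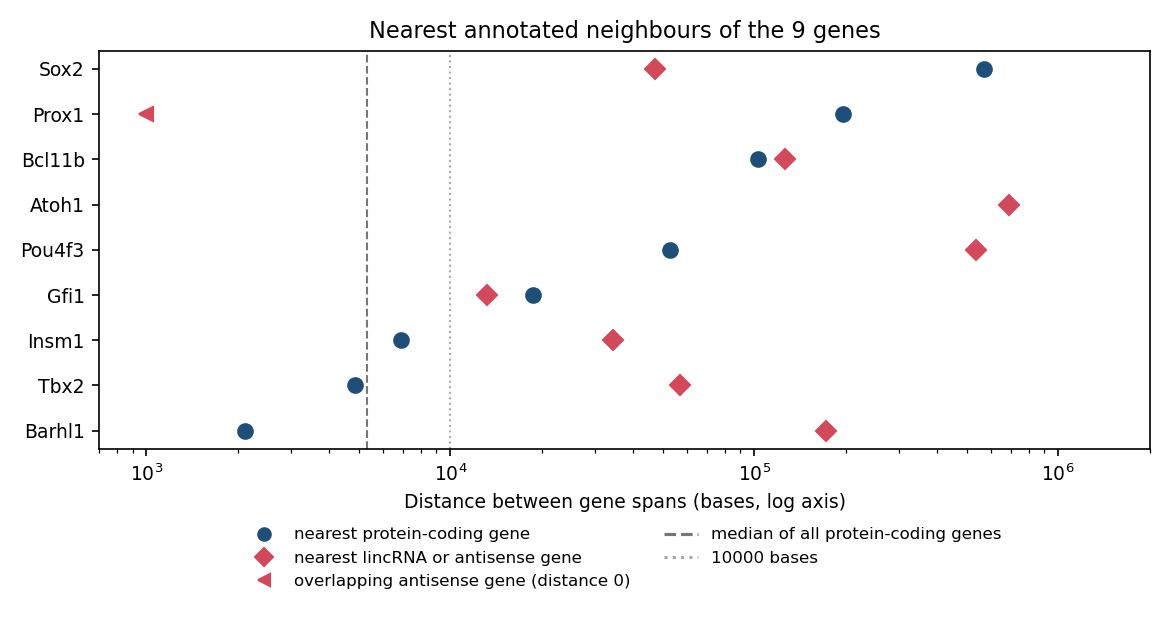
Distance from each of the 9 genes to its nearest protein-coding gene (blue circles, none drawn for Atoh1) and its nearest lincRNA or antisense gene (red diamonds) in the deposited annotation, in bases on a log axis. The red triangle at the left edge stands for the overlapping antisense genes of Prox1 (distance 0), the dashed line is the median distance of all protein-coding genes to the next one, 5316 bases, and the dotted line marks 10000 bases. Sox2, at 569084 bases, stands farthest from a protein-coding gene, and Barhl1, at 2108 bases, nearest.

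In the deposited annotation, most of the 9 genes stood far from other protein-coding genes. In 5 of 9 (Sox2, Prox1, Bcl11b, Atoh1 and Pou4f3) the nearest one was over 50000 bases away, whereas the share over 21985 protein-coding genes was 11.1%. The median distance was 52997 bases for the 9 genes and 5316 bases over all genes. Sox2 was the most isolated, at 569084 bases from Dnajc19, followed by Prox1 at 195672 bases from Smyd2 and Bcl11b at 102829 bases from Setd3. Pou4f3 lay 52997 bases from Rbm27. With the M21 models, Atoh1 is no longer over the limit, 4 of 9 genes are, and the median of the 9 genes is 24802 bases.

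The remaining 4 genes had closer neighbours. Gfi1 lay 18759 bases from Evi5, Insm1 6882 bases from Cfap61, Tbx2 4842 bases from Gm11444 and Barhl1 2108 bases from Ddx31. Tbx2 and Barhl1 were the 2 genes of the 9 below the median of all genes. Distance of this kind was shared by the comparison lists: the nearest protein-coding gene was over 50000 bases away for 5 of 13 relatives and 12 of 30 other regulators, with medians of 36089 and 31678 bases. What sets the distances was not tested.

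The longest coding sequences of the 9 genes ranged from 960 bases in Sox2 to 2655 in Bcl11b, with a median of 1470 in Gfi1. Over all protein-coding genes the median was 1170 bases and the quartiles were 753 and 1938. Bcl11b, Prox1 (2214) and Tbx2 (2136) lay above the upper quartile, and the other 6 lay within the quartiles. Medians for the relatives and the other regulators were 1353 and 1198.5 bases. Exon number differed more than length: the median was 3 coding exons in the 9 genes, in the relatives and in the other regulators alike, against 6 over all genes. The gene span was below the median of all genes, 16537 bases, in 7 of 9 genes, the exceptions being Bcl11b and Prox1.

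The coding sequence was gathered in 1 large exon even in several genes with introns. Over all 18300 multi-exon genes, the largest coding exon held a median of 27.3% of the coding sequence, with an upper quartile of 45.3%. Medians in the multi-exon relatives and other regulators were 53.3% and 54.4%. In 3 of the 6 multi-exon genes, Pou4f3, Prox1 and Bcl11b, 1 exon held over 50% of the coding bases, with 88.2%, 77.9% and 75.9%. With 2 coding exons the larger always holds at least 50%, so the count says little about Pou4f3. Genes with the same numbers of coding exons had a median of 73.5% for 2 exons and 45.6% for 4 exons. Bcl11b and Prox1 thus stood well above theirs, and Pou4f3 above its own by less. Gfi1 (33.2%) and Tbx2 (29.9%) lay near the 26.5% of genes with 7 coding exons. Barhl1, at 47.4%, lay below the 54.1% of genes with 3.

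GC content of the coding sequence was high in 8 of the 9 genes, above the upper quartile of all genes (56.8%). The values were 74.1% in Insm1, 66.9% in Tbx2, 66% in Sox2, 64.3% in Bcl11b, 64.2% in Gfi1, 64% in Barhl1, 63% in Atoh1 and 60.2% in Pou4f3. Prox1 was the exception at 52.6%, near the median of all genes, 51.8%. At the third base of codons, where many changes leave the amino acid as it is, the range ran from 61.8% in Prox1 to 90% in Sox2, against a median of 58.9% over all genes. Relatives and other regulators had medians of 59.8% and 60.9% over all coding bases, and 8 of 11 and 21 of 29 of those with a value were above the same quartile. High GC content was therefore no property of these 9 genes alone.

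**Figure D4:**
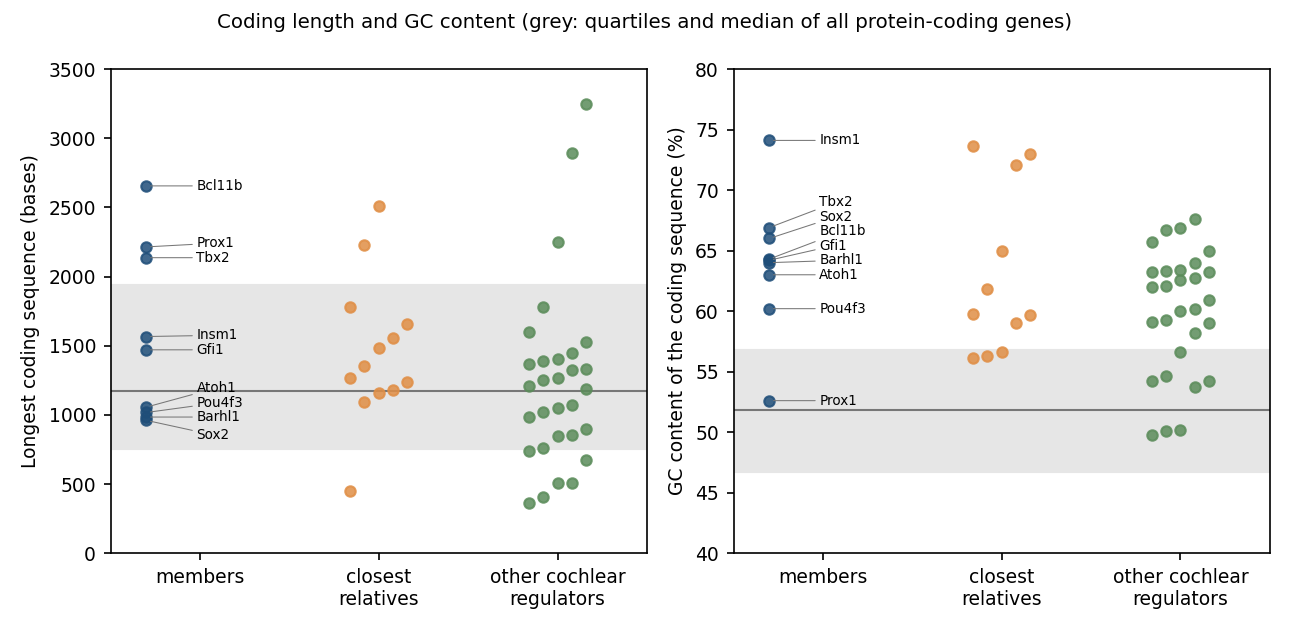
Longest coding sequence in bases (left) and GC content of the coding sequence in percent (right) for the 9 genes (blue, named), their 13 closest relatives (orange; 11 have a GC value) and 30 other cochlear transcription regulators (green; 29 have a GC value), 1 point per gene. The grey band spans the quartiles over all protein-coding genes and the line is their median, 1170 bases and 51.8%. Sideways spread only separates points. Insm1 is highest in GC content and Prox1 lowest of the 9.

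Alternative transcripts did not set the 9 genes apart. Of the 9, 4 (Gfi1, Bcl11b, Barhl1 and Prox1) had 2 or more protein-coding transcripts, against 51.9% of all protein-coding genes, and the same 4 had 2 or more transcript starts, against 61.2%. Counted by protein, 2 of the 9 had more than 1 coding sequence, Gfi1 and Bcl11b, against 45.6% of all genes. For the other 5 genes the annotation has 1 transcript and 1 start each: the 3 intronless genes, Pou4f3 and Tbx2. In 3 genes, Gfi1, Barhl1 and Prox1, at least 1 coding transcript had its start codon outside the first exon. The share over the 21633 genes with an annotated start codon was 43%. In Prox1 this held for every transcript, in Barhl1 for 2 of 3 coding transcripts and in Gfi1 for 3 of 5. The 4 genes thus vary in different ways: Barhl1 and Prox1 in the non-coding exons ahead of 1 protein, Bcl11b in its middle exons, and Gfi1 in its starts, its start codons and 1 skipped exon.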

How the data were processed

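Printed bases, motifs and GC content came from GENCODE M21 transcripts and RefSeq promoter windows. All other values, except those given for M21 or RefSeq, derive from 1 gene annotation that the authors deposited. Its unit is none other than genome positions in bases. Its header names GRCm38.p4, per the file headers. The submitters' processing notes name Cell Ranger 2.0.2, with the aligner not given in the sources used here. This annotation has 0 columns of values per sample, so no depth bears on any value, and the GFP and Ikzf2 libraries (1 each) were not compared.

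Coding lengths include the stop codon, amino acids exclude it, and the longest coding sequence stands for a gene. Distances run between gene spans, and overlap counts as 0. Shares over all genes use the 21990 protein-coding genes with a coding transcript. GENCODE M21 gave second models and coding bases (17727 genes, 80.6%), and RefSeq (GRCm38.p6) promoter windows. The 5 motifs were searched on both strands. The genes, the lists of 13 relatives and 30 regulators, and the rule for named genes (all 9, their neighbours within 10000 bases, the relatives, and regulators that are intronless or overlapped) were chosen with earlier results of these data known. One neighbouring gene and 1 regulator are not reported here. No test was run. Python 3.11.15 and Matplotlib 3.10.9 were used, and the reading of gene models was checked on simulated data. Alternatives were other windows, strands, transcripts and M21; the distance to protein-coding genes with its limits, GC content, motifs and the setting of complete coding sequences only were added after the data were seen.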

Additional observations from a re-analysis of the deposited data

How the results depend on the processing

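The number of genes with a nearby antisense or lincRNA gene was 1 with windows of 5000 and 10000 bases. It was 2 with 20000 bases (Gfi1 joins Prox1) and 0 on the same strand only. With M21 it was 4, against 28.9% of all protein-coding genes there. A count given here without a share over all genes under the same setting cannot be compared with all genes. The median coding length of 1470 bases became 1272 with the median over the coding transcripts of a gene and 1056 with its shortest complete coding sequence, and was 1470 with M21. Genes with 2 or more protein-coding transcripts numbered 4, or 2 when only distinct coding sequences counted, and 5 with M21, where Pou4f3 joins. Genes with the start codon outside the first exon numbered 3, or 1 (Prox1) in the transcript with the longest coding sequence. Genes over 50000 bases from a protein-coding gene numbered 5, and 4 with M21. Over 100000 bases away were 3, against 5.24% of all genes. The median distance of 52997 bases became 24802 with M21, through Atoh1. Intronless genes numbered 3 under each setting except M21, where Pou4f3-202 makes 4. Genes with several starts numbered 4, and 5 with M21. No paired analysis was possible because no result comes from a test on samples, and no replicate could be left out with 1 library per group. The models limit every value: an unannotated transcript, exon or neighbour has no count here.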
